A study of Mus musculus with 12 samples.

Results

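B16F10 cells, a mouse melanoma line labelled wild type, were compared after 24 h in medium from interferon-treated macrophages (M1) and after 24 h in medium from interleukin-4-treated macrophages (M2). The 3 M1 and 3 M2 libraries, 6 of the 12 in the series, were chosen by their treatment labels and compared across every gene abundant enough to test. The macrophages were bone-marrow-derived and had been treated for 24 h before their medium was moved to the melanoma cells, with 20 ng/ml of a cytokine spelt INF-γ in the labels, taken here as interferon gamma, for M1, and with 20 ng/ml of IL-4 for M2. Medium from untreated macrophages (M0) and from macrophages kept in melanoma medium made up the other 6 libraries. No label mentions a wash or change of medium before collection, so macrophage products and cytokine carried over with the medium cannot be told apart in any result below. Separate cultures are not stated either, so the p-values speak only to how far these libraries scatter, possibly for technical reasons.

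Interferon gamma binds a receptor on almost all nucleated cells and acts through the kinases JAK1 and JAK2 on genes with GAS elements, IRF1 among them. IRF1, and complexes that hold STAT2 and IRF9, bind a second kind of element, the ISRE, in genes for pathogen defence and antigen presentation. Interleukin-4 acts mainly through STAT6, which prefers an element with the same half-sites set 1 base farther apart. In melanoma cells interferon gamma is known for raising MHC class I and the checkpoint ligand PD-L1 and for lowering pigment genes.

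Library totals lay between 17266441 and 20049860 counts, and 13800 genes passed the filter on low counts. Levels are given as CPM, counts scaled to library size with TMM factors of these 6 libraries. Levels in M0 medium were scaled with factors of all 12 libraries, so their scale differs slightly from that of the M1 and M2 levels beside them. Log2 values of libraries of 1 group correlated across genes at r = 0.993 to 0.994, and those of different groups at 0.923 to 0.928. The first principal component, which split M1 from M2, held 89.6% of the variance and the second 2.86%, with M2 replicate 2 and M2 replicate 3 at its ends. Markers of the melanoma line were abundant in all 6 libraries, with Tyrp1 at 6111 to 6755 CPM, whereas the leukocyte and macrophage genes Ptprc, Adgre1, Itgam, Tyrobp and Cd14 had 0 counts in each. The 23 macrophage markers on the list summed to 21.8 to 23.2 CPM in M1 and to 6.02 to 6.66 CPM in M2. Of the M1 counts most were Mpeg1, a pore-forming protein gene, with 308, 286 and 292 counts against 0 in each M2 library. Its part in the other results was not tested. Of these 23 genes 14 were at 0 in each M1 library and 14 to 17 in the M2 libraries. Cd68 had 88, 69 and 97 counts in M1 and 44, 43 and 49 in M2 (edgeR quasi-likelihood test, adjusted p = 6.73e-05). Lyz2, Coro1a and Fcer1g lay lower in M1. Lyz2 had 17, 15 and 11 counts against 20, 19 and 19. Coro1a had 15, 16 and 21 against 29, 33 and 28, and Fcer1g 3, 8 and 7 against 11, 11 and 13. Among these lower genes only Coro1a had an adjusted p under 0.05 (0.0472), which DESeq2 did not give (0.113). The Coro1a call was also lost whichever single library was left out (0.062 to 0.153), without the filter (0.0974) and with a replicate block (0.0553). Markers of fibroblasts and endothelium summed to 14.6 to 19.9 CPM in M1 and 24.4 to 26.7 in M2, and those of lymphocytes and neutrophils to at most 1.11 CPM in any library. Among polarisation markers of macrophages, which summed to 2.21 to 2.89 CPM in M1 and 0.111 to 0.261 in M2, Retnla, Chil3 and Mrc1, raised by IL-4, had 0 counts in all 6, Arg1 had 2 to 3 per library, and Nos2 had 23, 28 and 29 in M1 and 0 in M2.

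In all, 6952 genes (50.4% of those tested) passed edgeR's quasi-likelihood test at an adjusted p under 0.05, here "called", of which 3555 (25.8%) were higher in M1 and 3397 (24.6%) lower. The counts of list members given below are to be read beside these shares. The directions were nearly equal in number with these TMM factors and very unequal in size. With library totals alone 3066 were higher and 4179 lower, and with upper-quartile factors 3055 and 4188. Changes of at least 2-fold were called in 1195 genes (8.66%), 878 higher (6.36%) and 317 lower (2.3%), changes of at least 16-fold in 223 higher and 2 lower, and changes of at least 64-fold in 144 higher and 0 lower. The median size was 0.473 on the log2 scale for a called rise and 0.325 for a called fall. Genes at least 2-fold higher took 8.14% to 8.39% of the counts of each M1 library and 1.14% to 1.17% of each M2 library. In M2 63 of them had no count at all, another 314 (35.8%) lay under 1 CPM, 266 at 1 to 10 CPM, 218 at 10 to 100 CPM and 17 at 100 CPM or more. The 3 libraries of one group did not overlap those of the other in 7849 genes (56.9%). Statements below that the groups do not overlap are to be read beside this share. For genes picked by size of change or by abundance, no overlap was a condition of the pick. When all 12 libraries shared 1 estimate of spread, which includes an M0 library that stood apart, 2512 genes were called and 1070 by at least 2-fold. Without that library it was 7233 and 1350.

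**Figure D1:**
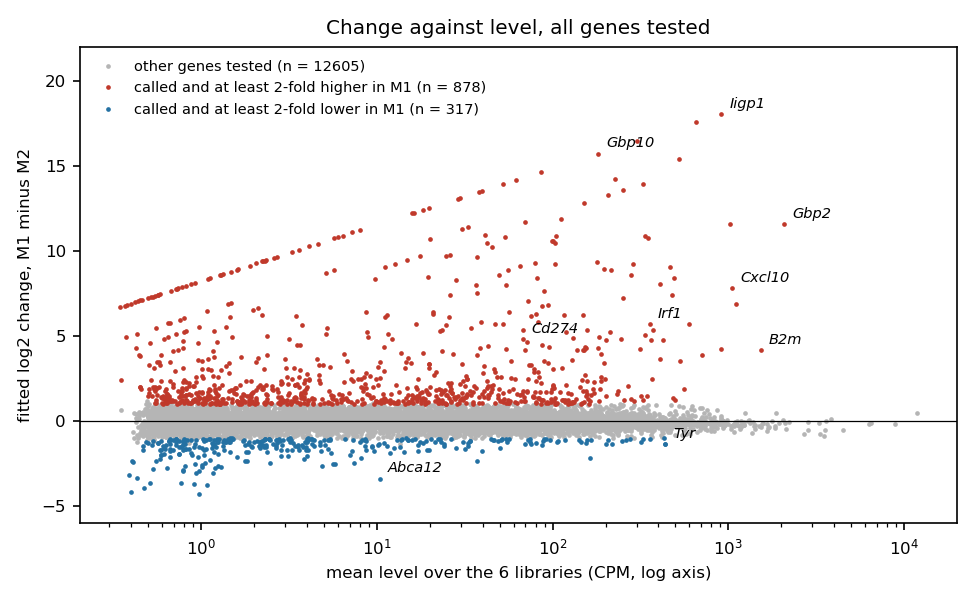
Fitted log2 change (M1 minus M2) of each of the 13800 genes tested against its mean level in CPM on a log axis. Iigp1 has the highest fitted value, at 18.07, Abca12 is marked among the lower genes at −3.37, and the straight upper edge of the red points holds genes without a count in M2, whose fitted values are not bounds.

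In the interferon pathway the receptor chains and kinases changed by under 2-fold and the transcription factor Stat2 by over 16-fold. Of 13 members of the receptor and JAK-STAT list 8 were higher in M1, 2 lower (1 without M1 replicate 1 or 2 or M2 replicate 2 or 3) and 3 not called, with a median log2 change of 0.34 beside 0.000162 over all genes tested. The chains of the interferon gamma receptor were not called: Ifngr1 stood at 20.1 ± 0.766 CPM in M1 and 19.9 ± 1.12 in M2 (SD, n = 3), and Ifngr2 at 65.5 ± 2.06 and 63.3 ± 0.149, with adjusted p of 0.885 and 0.472. The kinases Jak1 and Jak2 rose by 0.68 ± 0.04 and 0.84 ± 0.06 (SE) on the log2 scale, and the interferon alpha receptor chains went apart, Ifnar2 up by 0.93 ± 0.07 and Ifnar1 down, at −0.31 ± 0.05.

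Stat2 (chr10:128270559-128292849, plus strand, mm10), a transcription factor of the interferon pathway, stood at 339.6, 352 and 348.8 CPM in M1 and at 19.1, 15.8 and 17.4 CPM in M2. All M1 libraries lay far above all M2 libraries, and the log2 change was 4.32 ± 0.05 (SE, adjusted p = 8.3e-37). Stat3, the factor used by interleukin-6, rose by 1.5 ± 0.04, while the IL-4 factor Stat6 differed by 0.18. In M0 medium Stat2 lay at 12.8, 16.9 and 15.9 CPM, around the M2 levels.

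Most interferon regulatory factors were higher in M1 too. Of 10 tested 8 were higher, 7 of them by at least 2-fold, and 2 lower, Irf3 and Irf2bp1 (1 without M1 replicate 2 or M2 replicate 3). Irf2bp1, which the list as written also holds, is named for binding IRF2 and is not itself such a factor. Irf1 (chr11:53770014-53778374, plus strand), which passes the signal on to ISRE genes, stood at 699.4, 699.3 and 697.9 CPM in M1 and at 11.7, 14 and 14.7 in M2. The M1 libraries were nearly identical and far above those of M2, and the log2 change was 5.70 ± 0.06 (adjusted p = 1.25e-39). Irf8, a partner of IRF1 otherwise known from myeloid cells, had 73, 79.2 and 76.5 CPM in M1 and no count in M2, at least 1470-fold higher in M1. Irf7, which amplifies type I interferon responses, rose by 7.51 ± 0.14, Irf5 by 4.94, and Irf9, the DNA-binding partner of STAT2, by 3.26 ± 0.10. Genes as low in M2 as Irf8 and Irf7 could pass the filter only through M1, so for them being tested implied being higher.

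Feedback inhibitors of cytokine signals went both ways. Socs1, the inhibitor of JAK kinases induced by interferon, stood at 59.3, 73.3 and 69 CPM in M1 and at 1.28, 1.64 and 1.48 in M2, a log2 change of 5.51 ± 0.12 (adjusted p = 2.72e-28). Usp18, which blunts type I interferon signalling, rose by 5.81 ± 0.11 and Socs3 by 1.65 ± 0.08. Socs2, a feedback gene of STAT5 and STAT6, went the other way, at 1.01, 0.711 and 0.559 CPM in M1 and 4.51, 4.18 and 3.84 in M2 (log2 change −2.45 ± 0.26, adjusted p = 5.25e-10). It was also 2.95, 3.57 and 4.07 CPM in M0 medium, close to the M2 levels. Of the 15 members of this list 6 were higher, 3 lower and 6 not called. Thus 60% were called, beside 50.4% of all genes tested.

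The guanylate-binding proteins and the immunity-related GTPases, 2 families that attack the membranes around pathogens inside cells, held many of the largest rises. All 10 tested Gbp genes and 9 of the 10 tested Irg genes were higher in M1, with median log2 changes of 12.09 and 11.92, or 11.63 and 10.86 with the 4 genes of each list that had no count in M2 set at their lower bound. Over all genes tested 25.8% were higher. Here and in the lists above and below, genes with few or no counts in M2 could pass the filter only through M1, so for them being tested implied being higher. The 22 listed genes took 1.69% to 1.77% of all counts in M1 and 0.00797% to 0.00837% in M2. Irgq, a distant relative, was not called, at 54.9 ± 1.8 and 54 ± 1.41 CPM (adjusted p = 0.725). Members of both families resemble each other, and how reads shared between copies were counted is not given in the sources used here, so the values of single members are uncertain.

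Gbp2 (chr3:142620602-142638008, plus strand) had the highest mean of all genes at least 2-fold higher in M1, with 4271, 4191 and 4015 CPM in M1 and 1.38, 1.29 and 1.37 in M2. Libraries of 1 group lay close together and the groups far apart (log2 change 11.58 ± 0.07, adjusted p = 9.44e-47). Per kilobase of exon it reached 1653 CPM in M1, above the 1007 of Igtp and 376 of Irgm1 and below the 3368 of B2m. Iigp1 (chr18:60376027-60392634, plus strand), the immunity-related GTPase of the parasite vacuole, stood at 1811, 1912 and 1746 CPM in M1 and had no count in M2 or M0, so that M1 was at least 35100-fold higher. The same held for Gbp4, Tgtp1, Gbp10 and Gbp6, at least 25100-, 11700-, 6980- and 3280-fold higher. For Tgtp2, with 1 count in M2, the ratio was 60500, with an exact 95% interval for counting error from 10900 to 2390000.

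Igtp stood at 2004, 2074 and 2029 CPM in M1 and at 0.666, 0.547 and 0.767 in M2. Irgm1, the regulator that guards host membranes from the effector GTPases, had the highest M2 level of the 9 that rose, with 18.8, 17.5 and 18 CPM there and 2240, 2164 and 2155 in M1. Its change of 6.92 ± 0.05 was the smallest of the 9. The annotated spans of Igtp and Irgm2 overlap on the same strand, so their reads may not be fully separated.

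Promoters of these genes are shown because 4 of them share 1 arrangement of elements. The RefSeq windows used (GRCm38.p6, the assembly also called mm10) run from 250 bases before to 50 after the annotated start, and the 250 bases before it are printed, 5′ to 3′ on the gene's strand. Capitals mark matches to GAS (TTCNNNGAA) and to ISRE (GAAA, any 2 bases, then GAAA, printed as its complement where it lies on the other strand).
Irf1 (chr11:53769764-53770013, plus strand): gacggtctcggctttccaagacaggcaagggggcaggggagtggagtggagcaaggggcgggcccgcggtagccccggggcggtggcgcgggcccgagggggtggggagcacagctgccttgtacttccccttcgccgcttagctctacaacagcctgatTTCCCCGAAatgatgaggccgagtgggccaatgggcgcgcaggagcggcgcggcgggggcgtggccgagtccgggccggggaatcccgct
Gbp2 (chr3:142620413-142620662, plus strand): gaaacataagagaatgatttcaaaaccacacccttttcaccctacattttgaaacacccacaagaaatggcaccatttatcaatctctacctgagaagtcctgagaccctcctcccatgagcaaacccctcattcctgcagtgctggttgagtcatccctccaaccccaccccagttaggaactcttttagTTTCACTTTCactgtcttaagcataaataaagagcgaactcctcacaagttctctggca
Tgtp1 (chr11:48992247-48992496, minus strand): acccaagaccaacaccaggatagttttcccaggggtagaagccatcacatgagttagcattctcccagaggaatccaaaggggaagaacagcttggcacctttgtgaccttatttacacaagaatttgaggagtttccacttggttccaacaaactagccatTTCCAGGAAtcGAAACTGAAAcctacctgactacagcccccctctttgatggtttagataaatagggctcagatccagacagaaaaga
Tgtp2 (chr11:49064213-49064462, minus strand): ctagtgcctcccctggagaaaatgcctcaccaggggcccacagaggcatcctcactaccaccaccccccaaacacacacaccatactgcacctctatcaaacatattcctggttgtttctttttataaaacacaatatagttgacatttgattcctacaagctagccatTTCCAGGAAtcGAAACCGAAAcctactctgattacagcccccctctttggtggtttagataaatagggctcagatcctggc
Igtp (chr11:58199306-58199555, plus strand): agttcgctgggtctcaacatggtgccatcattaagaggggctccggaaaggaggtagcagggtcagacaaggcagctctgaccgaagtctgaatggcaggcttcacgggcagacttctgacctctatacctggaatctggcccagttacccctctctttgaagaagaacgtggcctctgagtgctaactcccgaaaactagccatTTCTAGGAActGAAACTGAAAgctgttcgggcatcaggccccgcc
Irgm2 (chr11:58214727-58214976, plus strand): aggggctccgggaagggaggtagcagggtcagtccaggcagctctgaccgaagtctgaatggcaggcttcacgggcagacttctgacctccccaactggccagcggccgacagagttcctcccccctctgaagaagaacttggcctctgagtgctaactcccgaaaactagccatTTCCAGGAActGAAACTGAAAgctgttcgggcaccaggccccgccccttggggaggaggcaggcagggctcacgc

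In the window shown, the first of 2 for this gene, Irf1 held 1 GAS match, 90 bases before its start. Gbp2 held 1 ISRE match, 59 bases before its start. In Tgtp1, Tgtp2, Igtp and Irgm2 a GAS match was followed 11 bases later, start to start and on the same strand, by an ISRE match, with 2 bases between them. This spacing was noticed in these windows and then searched for. It occurred in 5 of the 32851 windows of the RefSeq table, those of the 4 genes and of the predicted gene Gm12185, whose annotated span overlaps that of Tgtp1. All 5 genes were at least 2-fold higher in M1, against 0 of the 9153 other tested genes with a window that held it. The genes are related copies, so the shared letters are not independent of each other. The matches are descriptions of the sequence, not shown binding sites.

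ISRE letters were most frequent in the genes with the largest rises. A match lay in a window of 3.77% of the 9773 tested genes with a window, in 18.4% of the 620 genes at least 2-fold higher in M1, in 43.4% of the 152 at least 16-fold higher, and in 1.97% of the 203 at least 2-fold lower. For GAS the shares were 8.33%, 13.7%, 18.4% and 5.42%. The wider STAT6 spacing (TTC and GAA with 4 bases between them) was in 6.56% of tested genes, 7.9% of the genes at least 2-fold higher, 11.2% of those at least 16-fold higher and 3.94% of the lower genes. No test of these shares was made. NF-kB letters (GGG, any 2 bases, TT, any base, then CC) were in 6.51%, 9.35%, 13.8% and 7.39% of the same sets. Both strands were searched in each case, matches to different motifs could overlap, and over all 32851 windows GAS, ISRE, STAT6 spacing and NF-kB matches occurred in 8.3%, 3.44%, 6.95% and 4.79%.

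**Figure D2:**
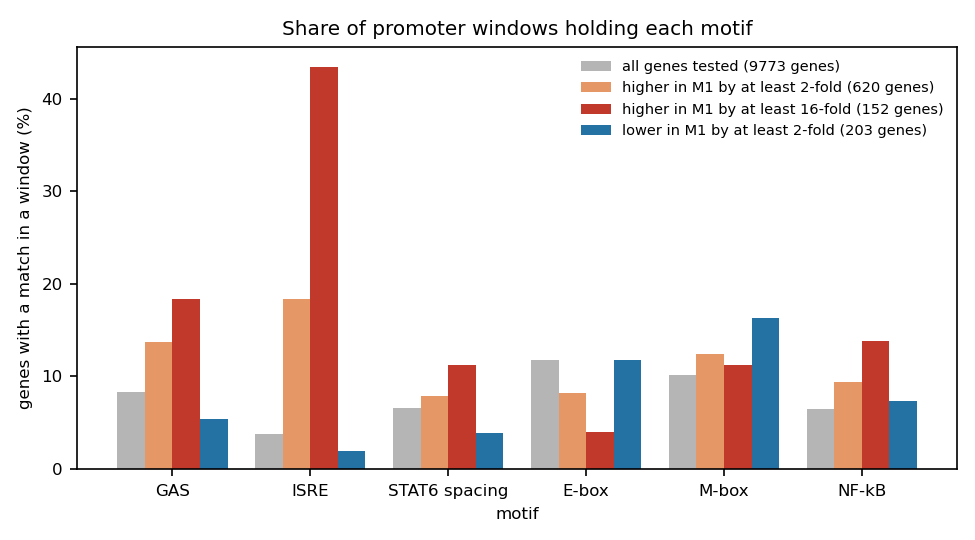
Percent of genes with a match to each of 6 motifs in a RefSeq promoter window, for all tested genes and for genes at least 2-fold higher, at least 16-fold higher and at least 2-fold lower in M1. ISRE shows the widest spread, from 1.97% of the lower genes to 43.4% of the genes at least 16-fold higher.

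Of 29 antiviral effectors tested, 28 were higher in M1, each by at least 2-fold, with a median log2 change of 4.87. Ifit3, which binds foreign RNA with its relatives, stood at 804.4, 827 and 802.3 CPM in M1 and 2.36, 3.33 and 3.4 in M2 (log2 change 8.06 ± 0.07). Isg15, the ubiquitin-like modifier, stood at 487.2, 507.3 and 502.8 CPM against 4.15, 2.63 and 3.23, and Rnf213, a giant ubiquitin ligase, at 1603, 1848 and 1736 against 94.5, 95.8 and 84.3. The 3 genes did not overlap between groups. Oas3, a synthase of the messenger that activates RNase L, had 1 count in M2, and its ratio was 3790, with an interval of 680 to 150000. Mx1, Ifit1 and Rsad2 rose by 5.85 ± 0.18, 6.27 ± 0.16 and 4.87 ± 0.10. The one member not called was Ifitm2, at 15.4 ± 1.56 and 13 ± 1.91 CPM (adjusted p = 0.0573), which passed the threshold without M1 replicate 2 (0.0198) or M2 replicate 1 (0.0116).

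Of 15 tested genes in the list of sensors of nucleic acids and microbial products 13 were higher and 2 lower. The lower ones were Mavs, an adaptor rather than a sensor, and Tlr4, at −0.22 and −0.25 (1 without M2 replicate 1). Zbp1, a sensor of Z-form nucleic acid that can start necroptosis, stood at 636.1, 659.1 and 654.8 CPM in M1 and had 2 counts over the M2 libraries, a ratio of 18800 with an interval of 5200 to 155000. Ddx58, the RNA sensor RIG-I, rose by 4.34 ± 0.06 and Tlr3, the endosomal sensor of double-stranded RNA, by 2.61 ± 0.11. The interferon-inducible PARP enzymes did likewise, with 9 of 10 higher. Parp14 stood at 896.1, 1038 and 923.8 CPM against 6.3, 4.92 and 5.75, and the partners Parp9 and Dtx3l rose together by 5.34 ± 0.06 and 5.25 ± 0.07. Parp1, the main DNA repair member, was the one that fell, from 332.2 ± 8.13 CPM in M2 to 224.8 ± 4.79 in M1 (log2 change −0.56 ± 0.04, adjusted p = 1.78e-14).

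**Figure D3:**
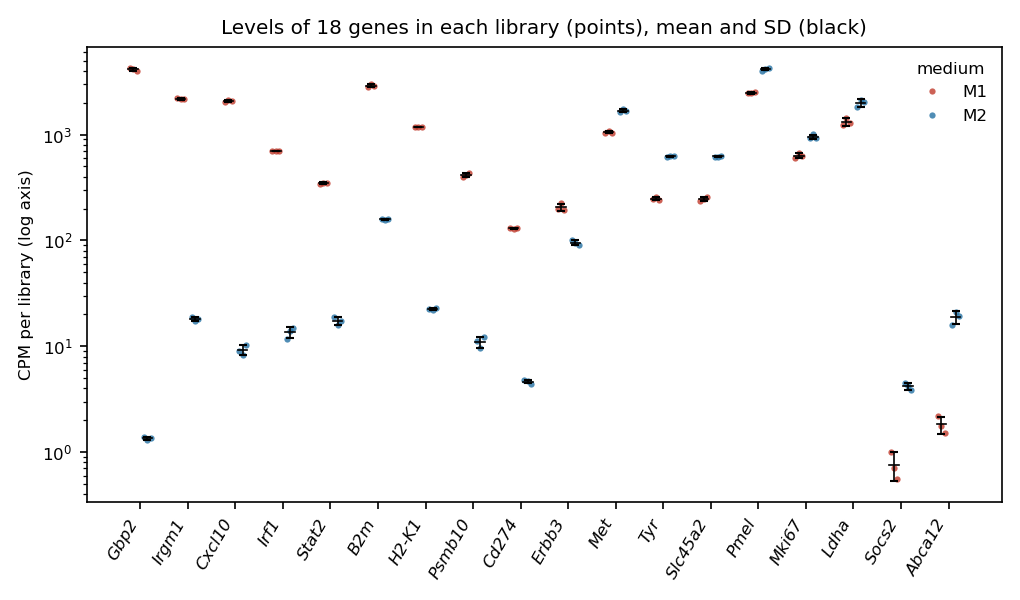
CPM of 18 genes in each M1 and M2 library on a log axis, with the mean and SD of each group of 3 in black. The 2 groups do not overlap in any of the 18, beside 56.9% of all genes tested, and for some of the 18 this was a condition of the pick. The gap is widest for Gbp2, and the genes from Met onwards are lower in M1.

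Chemokines that draw T cells rose from low levels to high ones in M1. Of 9 tested chemokine and colony-stimulating factor genes 7 were higher in M1, all by at least 2-fold, and 0 lower. Cxcl10 (chr5:92346638-92348889, minus strand) stood at 2053, 2117 and 2091 CPM in M1 and at 8.97, 8.35 and 10.4 in M2, a log2 change of 7.83 ± 0.06 (adjusted p = 8.4e-44). Cxcl9, which shares its receptor CXCR3, stood at 382.5, 480.9 and 371 CPM in M1 with 2 counts in M2, a ratio of 11800 (3270 to 97600). Ccl5, which also draws T cells, rose by 6.44 ± 0.10 and Csf1, the growth factor of macrophages, from 26.9, 24.5 and 27.2 CPM to 125.6, 137.3 and 141.4. All M1 libraries lay above all M2 libraries for these 4 genes. Ccl25 and Ccl27a were not called.

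Genes of MHC class I presentation rose from the transactivator to the surface molecule, and general chaperones of the endoplasmic reticulum fell slightly. Of 18 tested members 15 were higher in M1, each by at least 2-fold, and 3 lower, with a median log2 change of 5. B2m (chr2:122147686-122153083, plus strand), the light chain of every class I molecule, stood at 2815, 3002 and 2873 CPM in M1 and at 157.8, 157.7 and 158.2 in M2 (log2 change 4.20 ± 0.04, adjusted p = 1.57e-40). The heavy chain H2-K1 stood at 1171, 1168 and 1176 CPM against 22.4, 21.9 and 22.8, and H2-D1 at 1293, 1327 and 1365 against 90.6, 79.1 and 92.8. Both groups were tight and far apart in the 3 genes. Nlrc5, the class I transactivator, rose by 8.97 ± 0.08, and the peptide transporter genes Tap1 and Tap2 by 8.59 ± 0.08 and 8.01 ± 0.12. Calr and Canx, which fold new heavy chains and many other proteins, were lower, each at −0.28 ± 0.04, and Pdia3 at −0.10. The Pdia3 call was lost with DESeq2 (adjusted p = 0.0595) and without M1 replicate 1 or 3 or M2 replicate 2 or 3 (0.11 to 0.215). These class I genes have close relatives, and single values carry that uncertainty.

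The inducible proteasome subunits rose far more than the standard ones. Psmb8 had 40.3, 37.9 and 40.6 CPM in M1 and no count in M2, at least 766-fold higher, Psmb9 rose by 10.62 ± 0.12 and Psmb10 by 5.25 ± 0.06. Among the 26 other subunits 17 were higher, 1 lower (0 without M1 replicate 1 or 3 or M2 replicate 3) and 8 not called, with a median log2 change of 0.13. With library totals in place of TMM factors 11 were higher. Psma5 was the one subunit changed by 2-fold or more, at 166.6, 177.1 and 163.8 CPM against 80.3, 77.8 and 87.2.

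The promoters of Cxcl10 and B2m are shown because they pair ISRE with NF-kB letters. Capitals mark both kinds of match in the 250 bases before the start.
Cxcl10 (chr5:92348890-92349139, minus strand): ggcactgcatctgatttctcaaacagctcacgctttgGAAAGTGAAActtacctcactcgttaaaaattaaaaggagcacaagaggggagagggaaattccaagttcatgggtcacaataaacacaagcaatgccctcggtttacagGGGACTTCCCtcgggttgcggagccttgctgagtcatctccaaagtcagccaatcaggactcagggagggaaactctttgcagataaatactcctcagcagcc
B2m (chr2:122147437-122147686, plus strand): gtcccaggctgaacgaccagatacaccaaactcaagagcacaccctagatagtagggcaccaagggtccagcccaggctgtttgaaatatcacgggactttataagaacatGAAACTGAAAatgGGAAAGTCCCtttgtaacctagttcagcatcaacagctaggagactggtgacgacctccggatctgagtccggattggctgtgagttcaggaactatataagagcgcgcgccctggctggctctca

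In Cxcl10 the ISRE match began 213 and the NF-kB match 103 bases before the start. In B2m the ISRE match began 139 and the NF-kB match, on the other strand, 126 bases before it. NF-kB letters lay in a window of 4 of 7 chemokine genes and 4 of 13 class I genes that had one. ISRE letters lay in 1 of these 7 chemokine genes, Cxcl10 itself, and in 4 of the 13 class I genes.

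MHC class II genes, normally kept to professional antigen-presenting cells, were raised from near silence. Of 12 tested members 9 were higher, all by at least 2-fold, 2 lower and 1 not called, with a median of 4.59, or 4.45 with the 3 genes lacking a count in M2 at their bound. Ciita, the master regulator of the set, stood at 21.2, 28.6 and 26.4 CPM in M1 with 2 counts in M2, a ratio of 732 (202 to 6050). Cd74, the invariant chain, reached 71.7, 76.4 and 75.3 CPM from 0.256, 0 and 0. The chains themselves stayed low, with H2-Aa at 4.53, 4.74 and 4.12 CPM in M1 and no count in M2, at least 85.8-fold higher. Ifi30, a lysosomal reductase known as interferon-inducible, was lower in M1, at 16.6 ± 1.37 CPM against 23.3 ± 0.962 (log2 change −0.49 ± 0.08, adjusted p = 8.67e-06), with no overlap.

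Of 11 tested checkpoint and immune-suppressive genes 7 were higher and 1 lower. Cd274 (chr19:29367455-29388095, plus strand), the gene of PD-L1, stood at 131.1, 129.1 and 132.1 CPM in M1 and at 4.76, 4.72 and 4.44 in M2, a log2 change of 4.81 ± 0.07 (adjusted p = 8.44e-35). Lgals9, a ligand of TIM-3, rose by 3.41 ± 0.06, and Cd47, the "do not eat me" signal, from 26.8, 30.8 and 32.4 CPM to 137.6, 153.6 and 134.8. Tnfrsf14, the ligand of BTLA, rose by 6.45 ± 0.22. Ceacam1 was the member that fell, from 4.29 ± 0.392 to 2.12 ± 0.195 CPM. The second ligand of PD-1, Pdcd1lg2, and Ido1 were below the filter in both groups.

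Several genes of lytic cell death rose by more than 4-fold. Of 29 tested death genes 17 were higher, 3 lower and 9 not called. Casp4, the caspase that senses bacterial lipid, stood at 50.4, 47.4 and 47.3 CPM in M1 and 0.768, 0.845 and 1.21 in M2 (log2 change 5.68 ± 0.12), and Gsdmd, the pore protein it cuts, rose by 4.11 ± 0.10. Mlkl, the executor of necroptosis, was already at 62.7, 57.3 and 60.4 CPM in M2 and reached 311.6, 315.6 and 321.9 in M1. Tnfsf10, the death ligand TRAIL, had 1 count in M2 and a ratio of 585 (105 to 23100). Bax, which opens the mitochondrial membrane, and Mcl1, which opposes it, were among the 3 lower genes, at −0.48 ± 0.06 and −0.24 ± 0.04.

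All 17 tested NF-kB subunits and regulators were higher in M1, with a median of 0.65. Bcl3 rose most, by 3.19 ± 0.14. Relb, Birc3, Nfkbie and Tnfaip3 rose by 1.93 or less, and Rela, the main subunit, by 0.24. Nfkbia, the inhibitor that NF-kB induces, stood at 37.2, 39.9 and 47.5 CPM against 14.6, 15.4 and 15.6, without overlap. Complement and Serpina3 genes were mostly higher: C4b, a complement component, stood at 148.9, 178.8 and 158.1 CPM against 0.974, 0.298 and 0.11, and Serpina3f, a protease inhibitor, had 119.1, 134.9 and 116.7 CPM against no count, at least 2370-fold higher. Of the 13 tested in that list 10 were higher and 1 lower. Among 11 cytokines and receptors of innate signals 10 were higher, led by Il12rb1, a chain of the interleukin-12 receptor, by 5.71 ± 0.11, Il18bp by 3.89 ± 0.09 and Il15ra by 3.66 ± 0.27, and Il10rb was lower, at −0.80 ± 0.07.

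**Figure D4:**
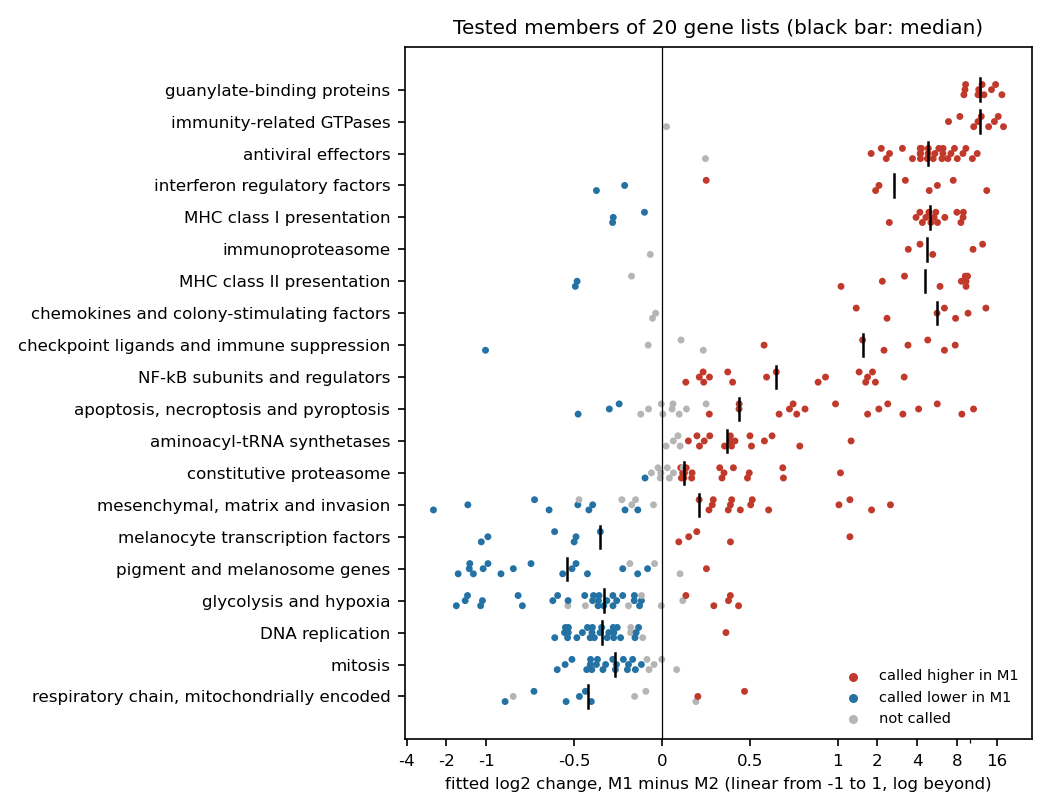
Fitted log2 change of each tested member of 20 of the gene lists, red where called higher in M1, blue where called lower and grey where not called, with the list median as a black bar. The axis is linear from −1 to 1 and logarithmic beyond, and the pigment, glycolysis, replication and mitosis lists have medians of −0.54, −0.33, −0.34 and −0.26.

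Known IL-4 and STAT6 response genes were mostly too low to test. Of 22 entries 8 were tested, 4 higher in M1, 2 lower and 2 not called, and Ccl17, Ccl24, Chil3, Retnla and Mrc1 were under the filter. The receptor chains Il4ra and Il13ra1 were themselves higher in M1, at 3.78, 3.74 and 4.57 CPM against 1.9, 2.24 and 1.92, and at 25.6, 21.2 and 24.1 against 8.04, 8.65 and 9.7. Tgm2, a STAT6 target in macrophages, was higher in M1 too, by 2.47 ± 0.15. The 2 lower in M1 were Socs2 and Cdh1, the latter under 1 CPM in all libraries and not called when M1 replicate 3 was left out (adjusted p = 0.0534).

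Most IL-6 family genes and STAT3 targets were higher. Of 12 tested 8 were higher and 3 lower: Bcl6 rose by 1.94 ± 0.10, Osmr, a receptor chain for oncostatin M, by 1.71 ± 0.11, Pim1 by 1.49 ± 0.10 and Lif by 3.50 ± 0.34. Cntfr, a receptor of the same family, fell from 106.3, 105.2 and 101.1 CPM in M2 to 44, 41.5 and 49.2 in M1, with no overlap.

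Among the genes that fell most in M1, Abca12, a lipid transporter, changed most of those with a mean of at least 5 CPM, with 2.19, 1.78 and 1.53 CPM in M1 and 16, 21.2 and 19.4 in M2 (log2 change −3.37 ± 0.15, adjusted p = 1.75e-19). Next came Sned1, Npnt and Megf6, genes of extracellular proteins, at −2.51 ± 0.18, −2.48 ± 0.15 and −2.31 ± 0.08. Tspan10, a tetraspanin, was the most abundant of the 12 largest falls, with 54.7, 61.9 and 64.4 CPM against 246.6, 281.6 and 273. Gamt, the last enzyme of creatine synthesis, and Mgll, a lipase for monoglycerides, fell to 6.29 ± 0.682 and 5.14 ± 0.209 CPM from 22.2 ± 1.3 and 18.6 ± 1.39. In M0 medium Abca12 lay at 9.81, 24.4 and 23.9 CPM and Tspan10 at 438, 322.6 and 288.4, the first value of each being the library that stood apart.

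Most pigment genes were lower in M1. Of 20 genes of pigment synthesis and the melanosome 16 were lower, 5 of them by at least 2-fold, 1 higher and 3 not called, with a median log2 change of −0.54. Tyr (chr7:87424771-87493512, minus strand), the rate-limiting enzyme of melanin synthesis, stood at 244.2, 258.8 and 241.3 CPM in M1 and at 614.3, 632.2 and 621.3 in M2, a change of −1.33 ± 0.04 (adjusted p = 1.87e-25). Slc45a2, a transporter that keeps the melanosome's pH, fell in the same measure, with 235.8, 245.7 and 255.2 CPM against 619.5, 615.5 and 629.4. The groups did not overlap for either gene, which was a condition of the pick by abundance that both passed. In these bulk libraries fewer cells expressing a gene and less RNA of it per cell cannot be told apart.

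Further members fell by unequal amounts. Trpm1, a cation channel gene, fell by 1.63 ± 0.08 on the log2 scale, Mlph, which links melanosomes to their motor on actin, by 1.05 ± 0.04, Pmel, the melanosome's fibril protein, by 0.74 ± 0.03 and Dct by 0.51 ± 0.03. Tyrp1, by far the most abundant, stood at 6111, 6451 and 6267 CPM against 6500, 6755 and 6665, where the highest M1 library lay below the lowest of M2 by little. Its change of −0.08 ± 0.03 (adjusted p = 0.0331) lost its call without M1 replicate 1 or 3 or M2 replicate 2 or 3, at adjusted p of 0.158, 0.0997, 0.118 and 0.0806. Rab38 alone rose, by 0.25 ± 0.04.

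Tyr's promoter is shown for the element named the M-box (CATGTG), a core of MITF binding, in capitals.
Tyr (chr7:87493513-87493762, minus strand): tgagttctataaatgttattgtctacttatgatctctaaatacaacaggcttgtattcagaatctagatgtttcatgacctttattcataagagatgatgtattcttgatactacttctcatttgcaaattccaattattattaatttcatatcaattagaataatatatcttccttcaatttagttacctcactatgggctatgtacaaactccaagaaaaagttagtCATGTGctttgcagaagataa

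The match began 21 bases before the start. M-box letters lay in a window of 6 of the 15 pigment genes that had one (40%), of 10.2% of tested genes with a window, of 16.3% of genes at least 2-fold lower in M1 and of 14.2% of all 32851 windows. The related E-box (CACGTG) lay in 5 of the 15 pigment genes (33.3%), in 11.8% of tested genes and in 7.15% of all windows. It also lay in 11.8% of genes at least 2-fold lower in M1. Among genes at least 2-fold higher, M-box letters lay in 12.4% and E-box letters in 8.23%. Neither GAS nor ISRE letters were found in the pigment windows.

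The list of melanocyte transcription factors, which as written also holds the pigment gene Mlana, was divided. Of 11 tested 6 were lower and 5 higher (3 higher without M1 replicate 3, M2 replicate 1 or M2 replicate 2), with a median of −0.35. Mitf, the factor that drives pigment genes, had 315.5, 423.3 and 340 CPM in M1 and 520.9, 584 and 540.5 in M2, a change of −0.61 ± 0.13 (adjusted p = 0.0189). Replicate 2 was highest in both groups, and the call was lost without M1 replicate 3 or M2 replicate 2 or 3 (adjusted p = 0.0707, 0.0644 and 0.0632). Sox10, which lies above Mitf, was 532.9, 579.9 and 567.1 CPM against 526.5, 518.5 and 526.6, a rise of 0.10 ± 0.04 whose call (adjusted p = 0.0344) was lost with library totals alone (0.285) and without any single library but M1 replicate 1 (0.063 to 0.133). Sox5 and Sox9 were about 2-fold lower, at −0.99 ± 0.08 and −1.09 ± 0.16, and Snai2 was higher by 1.24 ± 0.18.

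Growth factor receptors of the lineage went in both directions. Erbb3, the receptor for neuregulin, stood at 199.3, 223.4 and 195.5 CPM in M1 against 100.6, 95.1 and 91, a rise of 1.11 ± 0.05. Met, the receptor for hepatocyte growth factor, fell from 1644, 1752 and 1662 CPM to 1033, 1087 and 1042, a change of −0.68 ± 0.04. Kit was near the floor in both groups, at 0.265 ± 0.128 CPM in M1 and 1.75 ± 0.059 in M2. Mc1r, the receptor for melanocyte-stimulating hormone, rose by 0.17 ± 0.04.

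In the list of genes tied to dedifferentiated melanoma, of 8 tested 5 were higher and 3 lower. Ngfr, a neural crest marker, stood at 25.7, 26 and 28.7 CPM in M1 and 2.72, 2.59 and 1.75 in M2 (log2 change 3.50 ± 0.13, adjusted p = 1.83e-22), and Axl, a receptor kinase of resistant cells, at 88.7, 81.8 and 91.3 against 28.1, 23.3 and 25.2. Jun rose by 1.73 ± 0.05. Sox9, Pdgfrb and Nuak1 were lower. The AP-1 partners Fosl2 and Atf3 rose by 1.99 ± 0.07 and 3.10 ± 0.08, whereas the ERK feedback genes divided, with Dusp6 up by 1.41 ± 0.05, Dusp4 down from 123.2 ± 5.63 to 60.5 ± 2 CPM and Spred2 down, at −0.62 ± 0.07. In that list of ERK feedback and early genes 6 of 21 tested were higher and 9 lower.

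Of 29 tested genes of the mesenchyme, matrix and invasion 15 were higher and 9 lower. Fn1, the gene of fibronectin, carried the largest rise, with 628.3, 616.3 and 634.8 CPM in M1 and 120.8, 104.9 and 104.1 in M2 (log2 change 2.51 ± 0.05, adjusted p = 5.31e-29). Vim, the mesenchymal filament, rose by 0.51 ± 0.03, and Mmp2 by 1.02 ± 0.13. Itga4, an integrin that binds fibronectin, fell by 0.72 ± 0.06, and Col1a2 was under 2 CPM in both groups and lower in M1, at −2.50 ± 0.39.

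Most genes of DNA replication and mitosis were lower in M1, each by less than 2-fold. Of 29 DNA replication genes 25 were lower and 1 higher, and of 25 mitosis genes 20 were lower and 0 higher (1 without M1 replicate 1 or M2 replicate 2), with medians of −0.34 and −0.26, beside 24.6% of all tested genes lower. Mcm2, a subunit of the replicative helicase, stood at 503.5, 544.9 and 533.5 CPM in M1 and 801, 803.5 and 808.3 in M2 (log2 change −0.61 ± 0.04, adjusted p = 5.28e-16), and Mki67, the proliferation marker, at 603.1, 672 and 627.7 against 931.9, 1007 and 935.1. Both were without overlap. Rfc3, a clamp loader subunit, was the one that rose, by 0.36 ± 0.05, and Top2a was not called, at 0.08 ± 0.04 (adjusted p = 0.0512).

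Among 21 genes of the G1 phase 9 were lower and 9 higher. Cdk2, the kinase of the step into S phase, was 288.1, 283.7 and 285.4 CPM against 557.1, 578.5 and 588.3, the largest fall of the list. The inhibitor Cdkn1a (p21) rose from 126 ± 6.44 to 220.8 ± 1.1 CPM and Cdk6 from 19 ± 1.19 to 38.4 ± 2.95. Myc fell by 0.50 ± 0.06. Cdk2 and Pmel are neighbours that overlap at their ends on opposite strands, and without a stated strand setting reads in the overlap cannot be assigned.

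Glycolysis and hypoxia genes were mostly lower in M1. Of 37 tested 26 were lower, 5 by at least 2-fold, and 5 higher, with a median of −0.33. Adm, Egln3, Slc16a3 and Egln1, which hypoxia-inducible factors raise, were the leaders with Ankrd37. Slc16a3, the lactate exporter, stood at 54.4, 71.7 and 57.8 CPM in M1 and 113.5, 153.1 and 126.1 in M2 (log2 change −1.10 ± 0.17, adjusted p = 0.00637). Ldha, which makes lactate, was 1229, 1443 and 1285 against 1808, 2117 and 2042, and Eno1 2765, 3028 and 2930 against 4006, 4285 and 4335. Replicate 2 was the highest M1 and M2 library for Slc16a3 and Ldha, and the groups still did not overlap. Vegfa fell by 0.33 ± 0.06.

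Mitochondrial transcripts moved against each other although they come from 1 genome. Of 12 tested 6 were lower and 2 higher (1 higher without M1 replicate 1 or 3 or M2 replicate 2). mt-Co1 rose to 14270, 13300 and 13750 CPM from 10300, 9663 and 9866 (log2 change 0.47 ± 0.03), whereas mt-Cytb fell to 2311, 2721 and 2345 from 4583, 4439 and 4662 (−0.89 ± 0.06) and mt-Nd1 to 1972, 2165 and 1970 from 3409, 3245 and 3456 (−0.73 ± 0.04). The groups did not overlap for any of the 3. Together the mitochondrially encoded genes took 2.11% to 2.17% of counts in M1 and 2.21% to 2.37% in M2. Of 32 nuclear-encoded respiratory chain genes 9 were lower and 3 higher, with 20 not called and a median of −0.07. With library totals in place of TMM factors 16 were lower, and without M2 replicate 2 it was 14, and 1 was higher without M2 replicate 1. Ribosomal protein genes gave 12 lower, 2 higher (1 without M1 replicate 1 or 2 or M2 replicate 1 or 2) and 14 not called of 28, beside 24.6% lower and 25.8% higher of all genes tested, with the largest fall in Rps19, at −0.30.

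Most enzymes that charge transfer RNAs were higher. Of 20 cytosolic synthetases 16 were higher and 0 lower, with a median of 0.37. Wars, for tryptophan and known as interferon-inducible, stood at 469.3, 459.4 and 461.6 CPM against 195.1, 187.6 and 196.8 (log2 change 1.26 ± 0.04, adjusted p = 8.15e-25), followed by Kars at 0.78 ± 0.04. In the integrated stress and unfolded protein list 11 of 35 were higher, 8 lower and 16 not called, so that 54.3% were called beside 50.4% of all genes tested. Atf3 apart, Ddit3 (CHOP) led with 62.7, 46.8 and 59.2 CPM against 31, 25.8 and 28.8, and the chaperone-linked gene Herpud1 fell by 0.73 ± 0.05. Without M1 replicate 3 it was 7 higher.

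In these stress genes 1 library of each group ran low. M1 replicate 2 and M2 replicate 2 were both the lowest of their group in 20 of 35 stress genes, 15 of 26 genes of the NRF2 and iron list and 13 of 20 synthetases, against 1967 of all 13800 genes. Trib3 stood at 120, 75 and 108.2 CPM in M1 and at 65.5, 42.1 and 50.7 in M2 (log2 change 0.94 ± 0.27, adjusted p = 0.0443). The Trib3 call was lost without any single library but M1 replicate 2 (adjusted p = 0.0523 to 0.131), with library totals (0.0517), with upper-quartile factors (0.0526) and without the filter (0.0862). Slc7a11, the cystine transporter, stood at 155.4, 93.7 and 138 against 152, 74.2 and 88.4, with an adjusted p of 0.561. What sets replicate 2 apart was not tested. In the NRF2 and iron list 11 of 26 were higher and 5 lower, or 7 higher without M2 replicate 2 or without M2 replicate 3. Of that list 61.5% were called, beside 50.4% of all genes tested. Among the lower genes Tfrc, the transferrin receptor, fell from 384.4 ± 18.8 to 197.3 ± 19.9 CPM and the ferritin chain Ftl1 from 523.8 ± 49.7 to 305.4 ± 38.4, together with Mt1, a metallothionein, at −1.31 ± 0.05. Gpx1, a peroxidase, rose by 1.05 ± 0.05.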

How the data were processed

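Total RNA was taken with Trizol and made into Illumina mRNA libraries, per the labels' protocols. The deposited table holds whole-number counts per gene and library made by the authors. The submitters' processing notes list HISAT2 2.0 and the build mm10 but give them no role. For the counter, annotation and strand setting the entry is: not given in the sources used here. Close relatives (Gbp, Irg, Ifit, Oas and H2 genes) and overlapping genes are therefore uncertain.

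The 6 libraries were fitted in R 4.3.3 with edgeR 4.0.16 (filterByExpr, TMM factors, robust quasi-likelihood test). Adjusted p-values are Benjamini-Hochberg values from this fit over 13800 genes. Where another setting is named beside a value, it comes from that setting's own fit. The SE is the log2 change divided by the square root of its F statistic. A gene without counts in M2 was set at a floor of 3 counts over the group, and with 1 to 3 counts an exact 95% interval is given. Both cover counting error only, since reads carried no molecular identifiers. On simulated counts (13645 genes tested, 50 changed at each size) the test recovered 66% to 84% of genes changed by 2-fold or less. It recovered 100% of those changed 4-fold and called 0.0744% of unchanged genes. Far fewer genes were changed there than the 6952 called here, so these rates do not carry over to this comparison.

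Members and gene lists were chosen with earlier results of these data known. Genes named by size or abundance had to be called, with a mean of at least 5 CPM and no overlap. They were the 12 largest rises and falls and the 8 most abundant genes changed at least 2-fold in each direction. Also named were the 5 members of each list with the smallest p, and other members where the whole list is accounted for. Alternatives were other size factors, no filter, DESeq2 1.42.0, limma-voom (limma 3.58.1), a replicate block, more libraries and leaving out each library. Promoter windows were matched by symbol to the RefSeq table for 9773 tested genes. Results of some items are not reported here.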

Additional observations from a re-analysis of the deposited data

How the results depend on the processing

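With all 12 libraries in 1 fit, 2512 genes were called, 1418 higher and 1094 lower in M1, where the common dispersion was 0.0324 in place of 0.00189. Without M0 replicate 1 it was 0.00166, with 3716 higher and 3517 lower. Leaving out 1 library at a time gave 6326 to 6745 calls. DESeq2 called 6206 genes, limma-voom 6941 and edgeR without the filter 6931. Library totals alone and upper-quartile factors moved the median log2 change of all genes by −0.0483 and −0.0495, with 42.3% and 42.2% of calls higher against 51.1%. The replicate block gave 7074 calls. Across all tested genes the deviations of libraries with the same number correlated at 0.0112, 0.00294 and 0.00776, under the 0.1 asked of a pairing, although replicate 2 was lowest in both groups in many stress genes.

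The values that changed sign were all of genes not called. Irgq was at −0.00415 with all 12 libraries, −0.0223 with library totals and −0.0235 with upper-quartile factors, Ifngr1 at −0.012, −0.0318 and −0.033, and Ifngr2 at −0.0013 and −0.00256 with the latter pair. Without single libraries Ifngr1 ranged from −0.0281 to 0.0477, Ccl27a from −0.283 to 0.151 and Ccl25 from −0.0924 to 0.0055. With all 12 libraries 14 DNA replication genes, 7 mitosis genes and 10 glycolysis and hypoxia genes were lower, 6 synthetases and 9 NF-kB genes were higher, and Mitf had an adjusted p of 0.167. In that fit 73 of the genes followed across the alternatives lost their call. Among those named in the text were Sox10, Tyrp1, Mki67, Met, Eno1, mt-Co1, Jak1, Jak2, Calr, Canx, Mlana, Bax and Ddit3. So were Vegfa, Ifi30, Itga4, Ftl1, Ctsd, Hsd17b7, Ifnar1, Spred2, Rfc3, Rab38, Mc1r, Nuak1, Pdia3, Trib3 and Rps19. Irf3, Irf2bp1, Mavs, Tlr4, Rela and Stat6 lost theirs too. Top2a passed the threshold under several settings, for example DESeq2 (adjusted p = 0.0467), and so did Ifitm2, for example with limma-voom (0.0499) and the replicate block (0.0346). Genes under 1 CPM rest on few counts, and small changes of them were not detectable at this depth.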

Other observations

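Beside 50.4% of all genes tested, 60.7% of the cholesterol and 71.4% of the fatty acid synthesis genes tested were called. Of 28 tested cholesterol genes 9 were higher in M1 and 8 lower, with Insig1, a brake on the sterol sensor, at 102.7, 124.6 and 113.4 CPM in M1 and 190.6, 188.4 and 186.9 in M2 (log2 change −0.73 ± 0.05), and Hsd17b7, a sterol synthesis enzyme, higher by 0.84 ± 0.06. Of 14 fatty acid genes 6 were lower and 4 higher. Scd2, a desaturase, stood at 2387, 2353 and 2343 CPM against 3344, 3392 and 3310, and Fasn, the fatty acid synthase, fell by 0.44 ± 0.04 on the log2 scale.

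Among 15 tested p53 targets 8 were higher and 3 lower, with Plk2, a stress kinase, at 19.1, 15.8 and 19.7 CPM in M1 and 8.04, 8.35 and 7.62 in M2, and Zmat3, an RNA-binding protein gene, lower by a log2 change of −0.76 ± 0.06. Of 13 heat shock genes 4 were higher and 5 lower. Of 35 genes of autophagy and the lysosome 18 were higher and 7 lower, led in size by Ctss, a protease of antigen processing with 1 count in M2 and a ratio of 85.8 (15 to 3430), while the lysosomal protease gene Ctsd fell by 0.43 ± 0.04. Of 19 TGF-beta, BMP and YAP targets 9 were higher and 4 lower, with Ccn1 at 60.1, 43.7 and 57.2 CPM against 18, 15.1 and 16.8. The shares called in these lists were 73.3%, 69.2%, 71.4% and 68.4%, in the order given, beside 50.4% of all genes tested.

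Many of the genes with the largest rises lay next to each other. This was noticed after the values were seen, and it was not tested. Of 284 genes at least 8-fold higher in M1 with a known position, 73 (25.7%) fell into 11 runs of at least 4 such genes with gaps of at most 100 kb. The longest run, at chr11:48861968-49135387 (mm10), held 12 genes, Irgm1, Tgtp1 and Tgtp2 among them, and these were all the tested genes in its span. Runs were built only from genes already at least 8-fold higher. The share in runs was not computed for other sets of genes. A run at chr17:34119541-34316674 held 9 genes of the class II region, with Psmb8, Psmb9, Tap1 and Tap2 beside H2-Aa. Others held the Gbp genes of chromosomes 3 and 5, the Oas genes, the Ifit genes and the Ifi200 family. Many of these neighbours are related copies, for which shared reads are uncertain.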
